A study of Mus musculus with 6 samples.

Results

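V1/V2b/Slit2 neurons are 1 of 38 neuron subtypes that the authors annotated in single nuclei of the mouse spinal cord. The labels disagree on its level: the sample source is the lumbar cord, but the protocol describes dissecting the injured thoracic region, and the sources do not settle which was used. Every nucleus that the deposited annotation calls a neuron of this subtype was taken, which gave 304 of 6035 neurons, themselves part of 18514 nuclei. By number of nuclei it ranked 3 of 38. The mice were wild-type C57BL/6 animals with a severe contusion of the thoracic cord that paralysed both legs, and each spent 30 min on a treadmill. In the TESS group (3 samples) the mice received targeted epidural electrical stimulation, which let the paralysed mice walk when drugs activating 5-HT1a (serotonin) and D1 (dopamine) receptors were given. In the CON group (3 samples, labelled paralyzed) there was no stimulation, and the sources do not say clearly if these mice were given the drugs. The series text gives 20484 nuclei and 6171 neurons, more than the files hold. How many animals a sample stands for is not stated, so p-values measure only the spread between these samples.

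V1 and V2b neurons are ventral interneurons that send axons along their own side of the cord and inhibit motor neurons and other interneurons. In the embryo V1 cells are marked by the homeobox gene En1 and V2b cells by Gata2, Gata3 and Tal1, while V2a cells are the excitatory counterpart of V2b. A glutamatergic spinal neuron loads its vesicles through Slc17a6 (VGLUT2). An inhibitory one makes GABA with Gad1 and Gad2, recovers glycine with Slc6a5 (GlyT2), and loads either through Slc32a1 (VIAAT). Slit2 is a secreted guidance protein that repels axons carrying Robo receptors.

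CON 1, CON 2 and CON 3 held 60, 45 and 64 members with 181299, 134836 and 161892 UMIs (unique molecular identifiers, 1 per captured RNA molecule). TESS 1, TESS 2 and TESS 3 held 45, 61 and 29 members with 152517, 117308 and 51144 UMIs. The sample with the fewest molecules, TESS 3, therefore gives the least precise values. Members had a median of 2335.5 UMIs and none had fewer than 1260, a depth that 1719 of the 5731 other neurons (30.0%) did not reach. Their median exceeded that of the other neurons in all 6 samples. No barcode was shared between members, and 9 members carried a barcode that also occurs in another library. Levels below are CPM, UMIs of a gene per 1000000 UMIs of all members in a sample. Since all genes of these nuclei could enter the clustering that defined the subtype, levels against other neurons are given as description, with no test.

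Slit2 (chromosome 5, 47983138 to 48307733, plus strand, GRCm38) was high in the subtype that carries its name. Its level was 662, 719 and 686 CPM in CON 1 to 3 and 767, 878 and 645 CPM in TESS 1 to 3, so TESS 2 was highest and the groups overlapped. Over 6 samples it averaged 726 ± 86.2 CPM (SD, n = 6) in members against 388 CPM in other neurons, and 70.7% of members had a Slit2 UMI against 28.2% of other neurons. In oligodendrocytes, which should lack it, the summed level was 37.5 CPM. Slit2 did not single the subtype out: its level ranked 5 of 38 subtypes, and V1/Adam23 and V2a/Etl4 stood at 819 and 744 CPM. Between TESS and CON it did not pass the edgeR test (log2 fold change 0.16 ± 0.17 SE, adjusted p = 0.87).

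The second marker, Slc17a6 (chromosome 7, 51622006 to 51671119, plus strand), did not set the subtype apart from other neurons. It stood at 226, 66.7 and 204 CPM in CON 1 to 3 and at 177, 145 and 313 CPM in TESS 1 to 3, from 41, 9, 33, 27, 17 and 16 UMIs. CON 2 was far below the other samples and TESS 3 was the highest. Summed over samples the level was 179 CPM, against 164 CPM in all other neurons and 317 CPM in V2a/Slc17a6, and it ranked 21 of 38 subtypes. V1/V2b/Stmn3 and V1/V2b/Tenm2, which share the lineage name, had 24.9 and 5.5 CPM, and oligodendrocytes had 21.7 CPM.

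The inhibitory genes were present in the same subtype. Slc6a5 (chromosome 7, 49910146 to 49963856, plus strand) was at 259, 297 and 290 CPM in CON 1 to 3 and at 275, 452 and 117 CPM in TESS 1 to 3, with TESS 3 the lowest. Its summed level, 294 CPM, lay between the 39.8 CPM of V2a/Slc17a6 and the 678 CPM of V1/V2b/Tenm2. Slc32a1 (chromosome 2, 158610767 to 158615748, plus strand) gave a summed 214 CPM, again between V2a/Slc17a6 (38.5 CPM) and V1/V2b/Stmn3 (360 CPM). Gad2 and Gad1 were sparse, with summed levels of 65.1 and 28.8 CPM, and the Gad1 value is little above the 21.3 CPM of oligodendrocytes. Slc17a8 gave 1 UMI in all members, and Slc17a7 was not analysed here. These levels go against a description of the whole subtype as excitatory, so only its annotated name is used below.

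**Figure D1:**
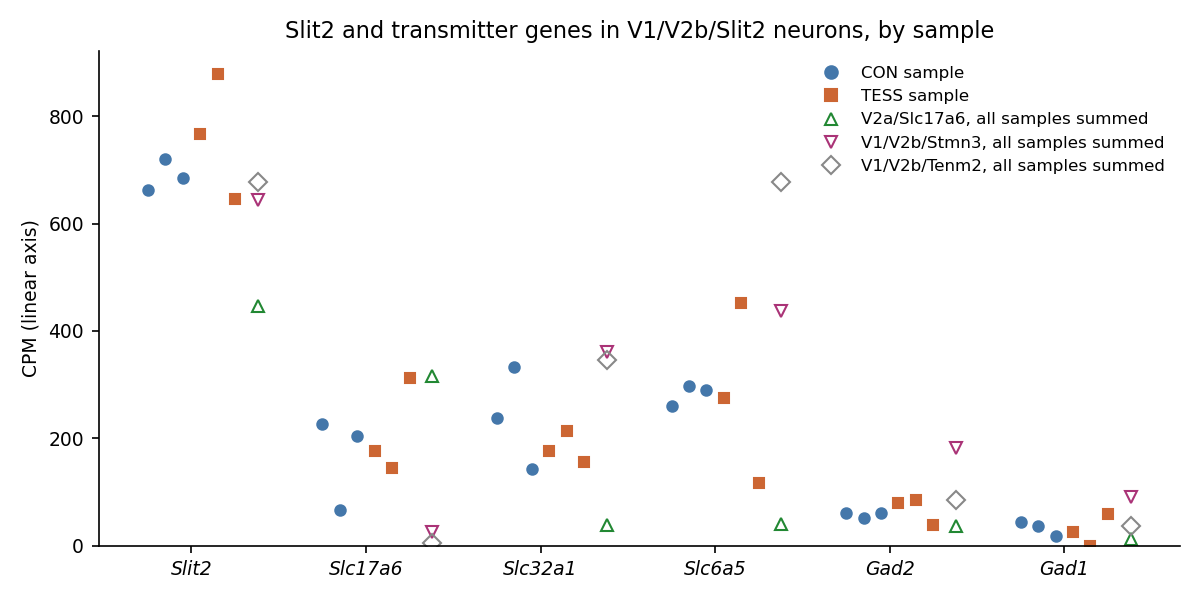
Level in CPM (vertical axis, linear) of Slit2 and 5 transmitter genes in V1/V2b/Slit2 neurons, 1 filled point per sample, with open symbols for 3 other subtypes summed over samples. Slc17a6, Slc32a1 and Slc6a5 of V1/V2b/Slit2 neurons mostly lie between the V2a/Slc17a6 value and those of the subtypes V1/V2b/Stmn3 and V1/V2b/Tenm2.

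The excitatory and inhibitory genes were found in different nuclei. Of 304 members, 71 had a UMI of Slc17a6 and of no inhibitory gene (Slc17a6-only), 145 had a UMI of at least 1 of the 4 inhibitory genes and none of Slc17a6 (inhibitory-only), 13 had both and 75 had neither. Both occurred together in 4.28% of members (exact 95% interval 2.30 to 7.20, counting error only), while independent occurrence at the same rates would give 14.4%. The inhibitory side is read from 4 genes and the excitatory side from 1, so the class sizes do not count neurons of either kind. Of the classes, 34 Slc17a6-only and 108 inhibitory-only nuclei had 2 or more UMIs of their genes, and the others had a single UMI.

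Each sample showed the separation. Among members with Slc17a6, an inhibitory gene was also found in 23.8%, 20% and 15.8% in CON 1 to 3 and in 15.4%, 7.14% and 8.33% in TESS 1 to 3. Among members without Slc17a6 the same shares were 66.7%, 75.0%, 60.0%, 68.8%, 70.2% and 41.2%. The shares did not overlap. Their mean difference was −48.6 percentage points (SD 10.7, n = 6 samples, lower in 6 of 6, two-sided exact sign-flip permutation test, p = 0.03125, the smallest 6 samples can give). With each nucleus thinned to 1000 UMIs, which left out no member, the difference was −33.9 points in the same direction in 6 of 6 samples, and 2 members retained both. Thinned to 500 UMIs it was −14.8 points and the call was lost (5 of 6 samples, exact permutation p = 0.1875).

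The 3 subtypes compared held mainly 1 of the classes. Slc17a6 was found in 27.6% of V1/V2b/Slit2 nuclei and an inhibitory gene in 52.0%. In V1/V2b/Stmn3 these shares were 3.23% and 84.3%, in V1/V2b/Tenm2 1.55% and 88.1%, and in V2a/Slc17a6 52.1% and 19.1%. In oligodendrocytes, at a median of 433 UMIs against 2335.5, they were 1.06% and 4.02%. Thinned to 500 UMIs, oligodendrocytes had 0.98% and 2.97% while V1/V2b/Slit2 neurons kept 8.55% and 22.0%, so neither share was at the background. Among single-class nuclei, the less common class made up 32.9% in V1/V2b/Slit2 (71 of 216). This was second among the 38 subtypes to Fxyd6 (45.8%, 92 of 201) and ahead of Cck/Cpne4 (29.6%). The Cck/Cpne4 share rests on 8 of 27 nuclei at a median of 1230 UMIs, so the rank compares unlike numbers and depths. V2a/Slc17a6, at a median of 2313 UMIs, had 22.5% (41 of 182).

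The 13 nuclei with both classes were deeper, with a median of 3219 UMIs against 2310 for Slc17a6-only, 2506 for inhibitory-only and 2023 for neither. No doublet caller was run on these nuclei, and whether the 13 are doublets was not tested. The mix varied between samples. CON 2 had 4 Slc17a6-only and 30 inhibitory-only nuclei, and TESS 3 had 11 and 7, the only sample with more of the former. The Slc17a6-only share of single-class nuclei was 29.0% ± 15.0 in CON and 40.9% ± 17.7 in TESS (SD, n = 3 each, exact permutation p = 0.6, where 3 against 3 cannot go below 0.1).

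**Figure D2:**
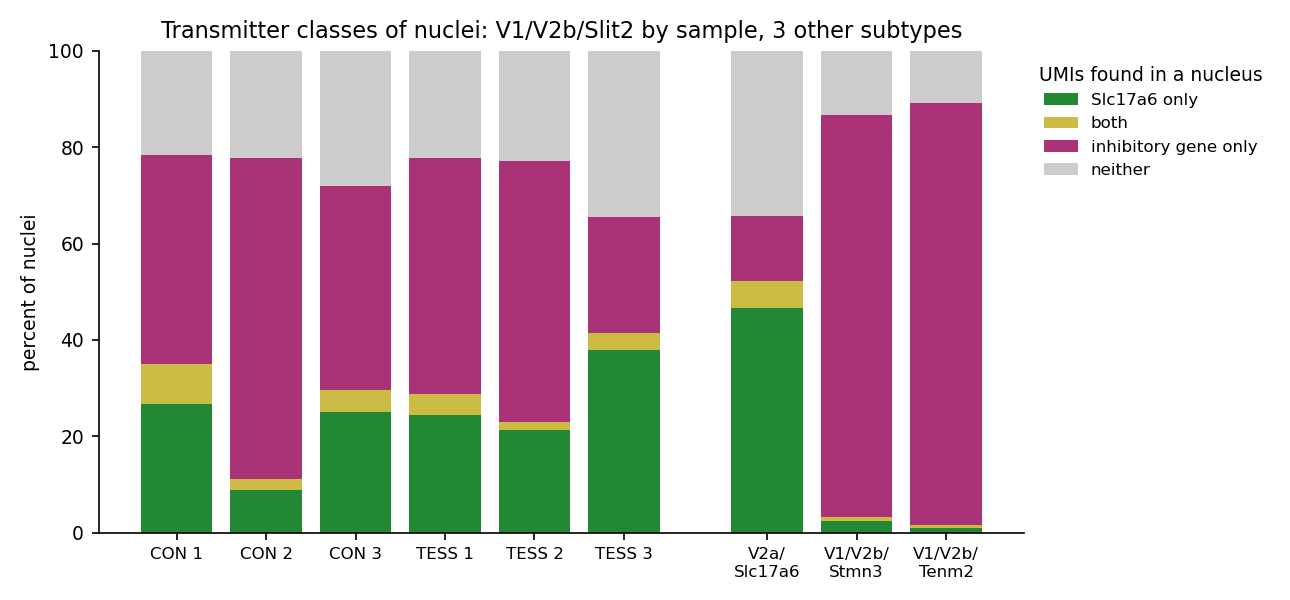
Share of nuclei (percent, vertical axis) with UMIs of Slc17a6 only, of both, of an inhibitory gene only or of neither, for V1/V2b/Slit2 neurons in each sample and for 3 other subtypes over all samples. Every V1/V2b/Slit2 sample holds both single classes, with between 1.64% and 8.33% of nuclei showing both.

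Other genes separated the same nuclei. Counts were summed per sample within the Slc17a6-only and the inhibitory-only nuclei and compared in edgeR, blocking on sample and leaving out the 5 genes that made the classes. Of 822 genes tested, 12 passed a Benjamini-Hochberg adjusted p of 0.05 (1.46%), 6 in each direction (0.73% higher in Slc17a6-only nuclei). This comparison was added after the class sizes were known. Fold changes below are log2 of Slc17a6-only over inhibitory-only, ± SE.

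The 6 genes higher in Slc17a6-only nuclei included 2 with very low levels in the other class. Tmem163, a vesicular zinc transporter gene (chromosome 1, 127486546 to 127679548, minus strand), ran from 224 to 771 CPM in Slc17a6-only nuclei (median 435) and from 0 to 28.4 CPM in inhibitory-only nuclei, with 87 against 4 UMIs. In inhibitory-only nuclei 3 of 6 samples had no UMI of Tmem163, so it entered the test only through the class where it is high, and the size of its fitted difference (5.34, adjusted p from edgeR 1.7e-09) depends on how counts of 0 are handled. Cacna2d1, an accessory calcium channel subunit that binds gabapentin (chromosome 5, 15934691 to 16374511, plus strand), ran from 336 to 670 CPM against 0 to 65.1 CPM, with 100 against 17 UMIs (3.58 ± 0.33), and CON 1 and TESS 3 had none in inhibitory-only nuclei. Cacna2d1 too entered the test only through the class where it is high. In both genes the lowest Slc17a6-only sample was well above the highest inhibitory-only one. The filter makes such a gap likely, so it adds no support of its own. Fam19a2, which encodes a secreted chemokine-like protein, had medians of 498 and 193 CPM (1.26 ± 0.26), and Ntng1, which encodes the membrane-anchored netrin G1, had 649 and 366 CPM (1.17 ± 0.23), both without overlap between the classes. Fam19a2 entered the test mainly through Slc17a6-only nuclei, so its gap adds no support of its own. Kcnh7, a potassium channel gene of the ERG family, had medians of 876 and 545 CPM (0.98 ± 0.18) and was higher in 6 of 6 samples although the ranges overlapped. Trpm3, a cation channel gene, had medians of 326 and 163 CPM and was higher in 5 of 6 samples (1.17 ± 0.29), with TESS 3 the exception. It entered the test mainly through Slc17a6-only nuclei. Summed Trpm3 was at 7048 CPM in astrocytes against 233 CPM in members, and the part of astrocyte RNA in this difference was not tested.

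For the 6 genes higher in inhibitory-only nuclei the classes did not overlap. Over all 822 genes tested the classes did not overlap for 12 (1.46%), 10 of them among the 12 that passed. Nrxn3, a presynaptic adhesion gene (chromosome 12, 88722876 to 90334935, plus strand), had a median of 8816 CPM in inhibitory-only nuclei and 2374 CPM in Slc17a6-only nuclei (−1.82 ± 0.13). Erbb4, the neuregulin receptor gene known for its place in forebrain inhibitory neurons (chromosome 1, 68032186 to 69108059, minus strand), ran from 702 to 2116 CPM against 214 to 491 CPM, with 734 against 63 UMIs (−2.38 ± 0.21). Its lowest inhibitory-only value came from TESS 3. Summed Erbb4 was at 1762 CPM in astrocytes and 1102 CPM in oligodendrocytes against 1160 CPM in members. The part of RNA from those cell types in this difference was not tested. Adarb2, a brain member of the RNA-editing enzyme family, had medians of 479 and 165 CPM (−1.82 ± 0.30). It entered the test mainly through inhibitory-only nuclei. Cacna2d3, a second accessory calcium channel subunit, had medians of 791 and 238 CPM (−1.76 ± 0.22), opposite in direction to its paralog Cacna2d1. Esrrg, an orphan nuclear receptor gene, had medians of 935 and 590 CPM (−0.77 ± 0.17) and Dlgap1, a postsynaptic scaffold gene, 1464 and 943 CPM (−0.67 ± 0.16). Summed over samples, Esrrg and Dlgap1 were at 570 and 1094 CPM in astrocytes against 837 and 1189 CPM in members. All 12 genes overlap at least 1 other annotated gene (Mgat5 for Tmem163), and as the strand used in counting is not given, reads of overlapping genes cannot be told apart.

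Of the 12 genes that passed, 5 belong to gene lists examined here. Beside the 1.46% called over all genes, 3 of 22 voltage-gated channel genes passed, 2 of them higher in Slc17a6-only nuclei (Cacna2d1, Kcnh7) and 1 lower (Cacna2d3), with a median log2 fold change of −0.08 against 0.01 over all 822 genes. Of 5 netrin and semaphorin genes 1 passed higher (Ntng1), and of 9 neuron marker genes 1 passed lower (Nrxn3). Of 16 glutamate receptor genes and 8 GABA and glycine receptor genes none passed, with medians of −0.06 and 0.05. Of 5 Slit and Robo genes none passed: Slit2 had 502 CPM in Slc17a6-only and 835 CPM in inhibitory-only nuclei, lower in the former in 6 of 6 samples (log2 fold change −0.68, adjusted p = 0.09). Pax2, a transcription factor gene of inhibitory spinal neurons, was too sparse to test, with 1 UMI in Slc17a6-only nuclei (5.17 CPM) and 43 UMIs in inhibitory-only nuclei (109 CPM). Foxp2, also too sparse to test with 28 and 56 UMIs, went both ways between samples: in CON 3 it was at 0 CPM in Slc17a6-only and 227 CPM in inhibitory-only nuclei, and in TESS 3 at 280 and 0 CPM. When each sample was left out in turn, Nrxn3, Erbb4, Cacna2d1, Cacna2d3, Adarb2 and Kcnh7 passed in 6 of 6 fits. Tmem163 passed in the 5 fits that tested it, and Ntng1 and Fam19a2 in 5 of 6. Esrrg passed in 3, and Dlgap1 and Trpm3 in 1 each. For Tmem163, Cacna2d1, Fam19a2, Adarb2 and Trpm3 the filter favoured the class where they are high in these fits too.

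**Figure D3:**
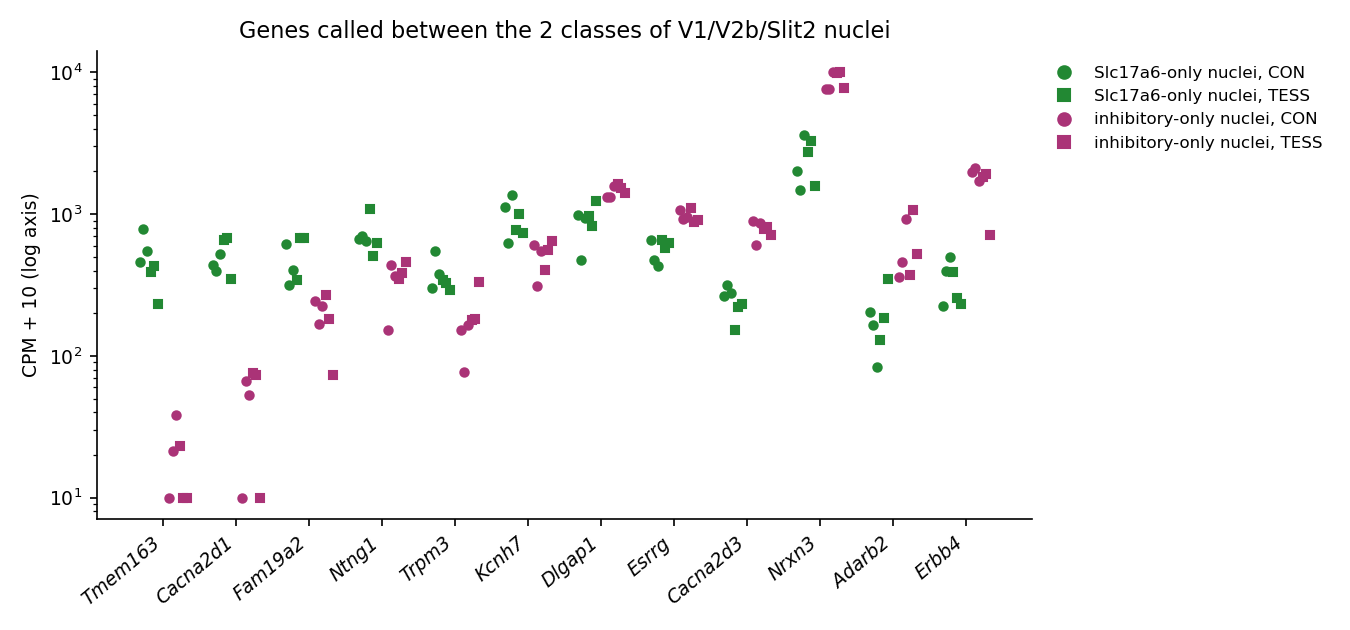
CPM plus 10 (log axis) of the 12 genes that passed between Slc17a6-only (green) and inhibitory-only (purple) nuclei of the subtype, 1 point per sample and class, circles for CON and squares for TESS. For 10 of the 12 genes the 2 classes do not overlap, against 12 of all 822 genes tested (1.46%), and Tmem163 and Cacna2d1 are at or near the floor in inhibitory-only nuclei.

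The same split in all other neurons gave 807 of 7728 genes called (10.4%). It called 9 of the 12 genes in the same direction. The difference between the class contrast of V1/V2b/Slit2 neurons and that of other neurons passed for 34 of 822 genes (4.14%), 3 of them among the 12. Erbb4 did not separate the classes in other neurons (−0.01), which gave a difference of −2.38 ± 0.25 (adjusted p from edgeR 6.19e-08). Adarb2 likewise stood at −0.09 in other neurons (difference −1.76, adjusted p from edgeR 0.0019), and Kcnh7 at 0.38 (difference 0.63, adjusted p from edgeR 0.042). Tmem163 was high in Slc17a6-only nuclei of other neurons too (3.77), and its difference did not pass (1.85, adjusted p from edgeR 0.10). Other neurons pool 37 subtypes, and the contrast inside single ones was not tested. Summed Erbb4 was at 1376, 986 and 567 CPM in V1/V2b/Stmn3, V1/Adam23 and V1/V2b/Tenm2, and at 448 and 238 CPM in V2a/Slc17a6 and V2a/Etl4. In the same order Adarb2 was at 658, 535 and 790 CPM and at 479 and 279 CPM. Kcnh7 was at 665, 461 and 580 CPM and at 968 and 468 CPM. These contrasts are thus not shown to be particular to V1/V2b/Slit2 neurons.

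Most of the ventral lineage genes named here were near the limit of detection. A gene with no UMI in 798996 UMIs of all members could still be present at up to 3.75 CPM (3 UMIs). Of the V1 genes, En1 gave 1 UMI and Foxd3 none, while Foxp2, a transcription factor gene kept by a subset of V1 neurons, was at 131 ± 43.2 CPM (SD, n = 6) against 36.9 CPM in other neurons and was higher in 6 of 6 samples. Foxp1 was at 84.4 CPM against 93.1 CPM. Sp8 gave 1 UMI and Prdm8 4. Of the V2b genes, Gata2, Gata3 and Tal1 gave 1, 2 and 1 UMIs and Sox1 none. Of the V2a genes described here, Lhx4 gave 5 UMIs, Lhx3 2, Shox2 1 and Sox14 none. The V0 genes Evx1 and Evx2 gave no UMI and the V3 gene Sim1 gave 2.

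Over all 15352 genes with a UMI in members, 564 were higher than in other neurons in all 6 samples and 1523 were lower. Many of the 15352 are too sparse to be higher in every sample, and 390 of the 564 had at least 50 CPM in each. The share among genes of a level like that of the list genes was not computed. The list counts below are therefore description and are not read as an excess. Of 7 genes of dorsal excitatory neurons in the table, 5 were lower in every sample. Ebf1 was at 286 ± 64.3 CPM against 1913 CPM in other neurons, lower in 6 of 6 samples. Lmx1b gave 4 UMIs and Tlx3 1. Genes that mark when spinal neurons are born gave a mixed picture: Zfhx3 (271 against 106 CPM) and Onecut2 (68.9 against 21.4 CPM) were higher in 6 of 6 samples, while Tcf4 (140 against 301 CPM) and Nfib (44.3 against 112 CPM) were lower in 6 of 6.

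The largest ratios over other neurons, among the 390 genes with at least 50 CPM and higher in every sample, were these. Samd5 led with 92.1 against 23.3 CPM, a log2 ratio of 2.04, and was found in 18.4% of members and 3.45% of other neurons. Foxp2 followed (1.90), then Stard5, a lipid transfer gene (1.33), Zfhx3 (1.32) and Meis2, a homeobox gene (1.27). Esrrg was higher at 835 ± 90.4 CPM against 401 CPM (1.10) and was found in 79.3% of members, the third highest level among 38 subtypes. Slit2 itself stood at 0.96. Like subtypes reached the same levels for some of these genes: summed over samples, Foxp2 was at 133 CPM in V1/V2b/Slit2 and 140 CPM in V1/Adam23, and Zfhx3 at 253 CPM against 255 CPM in V1/V2b/Stmn3 and 256 CPM in V2a/Slc17a6. The 20 leading genes also had UMIs in other neurons, for example Foxp2 in 3.75% of them.

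Neuropeptide genes were lower in every sample for 16 of 19 genes. Tac2 (neurokinin B) stood at 6.41 against 454 CPM, Npy at 6.44 against 222 CPM, Sst (somatostatin) at 139 against 1028 CPM, and Gal (galanin) gave no UMI against 105 CPM. Among receptors and channels, 18 of 42 voltage-gated channel genes in the table were lower in every sample and 3 were higher. Scn1a and Scn8a, the sodium channel genes of fast-firing axons, were higher (815 against 586 CPM and 470 against 336 CPM), as was Kcna1 (199 against 131 CPM). Cacna2d1 (252 against 732 CPM) was lower.

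Of 22 glutamate receptor genes 3 were higher in every sample, among them Gria4 (1755 ± 88.9 against 1537 CPM), and 10 were lower, among them Grm5 (1472 against 2403 CPM). The serotonin receptor gene Htr2c was the 1 of 15 serotonin and dopamine receptor genes higher in every sample: it was at 811, 986 and 914 CPM in CON 1 to 3 and at 924, 1159 and 1036 CPM in TESS 1 to 3, against a mean of 606 CPM in other neurons. Htr1a, the target of 1 agonist named for this study, gave 2 UMIs, and Drd1, the target of the other, gave none. In the GABA and glycine receptor list Glra1, the glycine receptor subunit of mature cord, was higher in 6 of 6 samples (620 against 539 CPM) and Gabrg3 was lower (557 against 990 CPM).

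Of the Slit and Robo genes named here, Slit2, which gives the subtype its name, and Robo1 were higher. Robo1 was at 553 ± 65.2 CPM against 386 CPM, higher in 6 of 6 samples, and Robo2 was lower in 6 of 6 (582 ± 102 against 804 CPM). Slit1 was lower (39.4 against 80.9 CPM). Robo3 and Robo4 gave no UMI. Of the netrin and semaphorin genes, Ntng1 was the 1 of 23 higher in every sample (507 against 306 CPM), and 9 were lower, including Sema6d (115 against 429 CPM) and Nrp1 (69.2 against 223 CPM). Epha6, an ephrin receptor gene, was higher at 938 ± 108 CPM against 686 CPM. Like subtypes shared some of these levels. Summed Epha6 was at 931 CPM in V1/V2b/Slit2 and at 912, 879 and 863 CPM in V1/V2b/Stmn3, V2a/Etl4 and V2a/Slc17a6. V1/Adam23 and V1/V2b/Tenm2 were lower, at 733 and 643 CPM. Summed Ntng1 was at 513 CPM, below V2a/Etl4 (706 CPM) and above V1/Adam23, V2a/Slc17a6, V1/V2b/Tenm2 and V1/V2b/Stmn3 (464, 461, 293 and 257 CPM).

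By its whole profile the subtype was most like ventral subtypes named V1 and V2a. Pearson's r over genes of log2(CPM + 10) of summed nuclei was 0.980 with V1/Adam23, 0.979 with V2a/Etl4, 0.976 with V1/V2b/Stmn3 and 0.975 with both V1/V2b/Tenm2 and V2a/Slc17a6, followed by Fxyd6 at 0.960 and, last of 37, Npyr-2 at 0.798. Genes are not independent replicates, and r falls with fewer nuclei. The 2 classes gave close values with the same subtypes: Slc17a6-only nuclei had 0.956 with V2a/Etl4 and 0.955 with V1/Adam23, and inhibitory-only nuclei had 0.968 and 0.972.

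Markers of other cell types were low but not absent. Oligodendrocyte markers summed to 603 CPM in members (482 to 612 in CON, 588 to 1017 in TESS, all 12 of 12 with a UMI), against 852 CPM in other neurons and 36416 CPM in oligodendrocytes. Astrocyte markers summed to 270 CPM (252 to 270 in CON, 256 to 352 in TESS, all 10 of 10 with a UMI), against 272 CPM in other neurons and 18960 CPM in astrocytes. Both ranges reached their highest value in TESS 3. Neuron markers summed to 30696 CPM, close to the 30205 CPM of other neurons.

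The share of V1/V2b/Slit2 neurons among neurons was compared between TESS and CON as a measure of how often they were recovered. It was 5.03%, 4.11% and 5.17% in CON 1 to 3 and 6.12%, 5.69% and 4.13% in TESS 1 to 3. TESS 3 lay within the CON range. The means were 4.77% ± 0.57 and 5.31% ± 1.05 (SD, n = 3 each), and the difference of 0.54 points was within the spread (exact permutation test, two-sided, p = 0.4).

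Stimulation was then compared gene by gene in these neurons, the question being which genes differ after walking under TESS. Of 3154 genes tested in edgeR, 2 passed (0.0634%), Sv2c higher (0.0317%) and Clu lower. At an unadjusted p below 0.05 there were 249 genes, and in 422 genes the CON and TESS samples did not overlap (13.4%). The median log2 fold change of all genes was 0.01. In these sums fewer nuclei of a kind and less RNA per nucleus cannot be told apart.

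Sv2c (chromosome 13, 95954594 to 96132577, minus strand) encodes a glycoprotein of synaptic vesicles. It was at 171, 148 and 198 CPM in CON 1 to 3 and at 354, 367 and 450 CPM in TESS 1 to 3, so every TESS sample was above every CON sample. It rose by 1.10 ± 0.23 (log2, SE, adjusted p from edgeR 0.0282), a 2.14-fold higher level. In other neurons it was at 152, 210 and 218 CPM in CON and 255, 296 and 235 CPM in TESS, and the difference between the responses did not pass the interaction test (0.68, adjusted p from edgeR 0.54).

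Clu (chromosome 14, 65968483 to 65981547, plus strand) encodes clusterin, a secreted chaperone that astrocytes make in quantity. It was at 392, 311 and 383 CPM in CON 1 to 3 and at 197, 119 and 117 CPM in TESS 1 to 3, with all TESS samples below all CON samples. It fell by 1.26 on the log2 scale (SE 0.25, adjusted p from edgeR 0.0164). The level in astrocytes was 2124 CPM. The astrocyte marker sum was 252 to 270 CPM in CON and 256 to 352 CPM in TESS, highest in TESS 3, and the 1 astrocyte marker that entered the gene test, Aldoc, had a log2 fold change of −0.44 (adjusted p from edgeR 0.77). The part of astrocyte RNA in the Clu result was not tested. In other neurons Clu was at 304, 276 and 273 CPM in CON and 279, 178 and 263 CPM in TESS, and the interaction did not pass (difference −0.94, adjusted p from edgeR 0.24).

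Neither call was stable. By the metadata's batch number, CON 1, CON 2 and TESS 1 share 1 batch and the other 3 samples have 1 each. A batch term therefore leaves TESS 1 against CON 1 and CON 2. The calls were lost with it, which that design makes likely, so it cannot decide if they hold. Inside the shared batch the differences were 1.12 for Sv2c and −0.85 for Clu. In DESeq2 neither passed (adjusted p 0.615 for both). Sv2c was lost on leaving out any 1 sample (0.0728 to 0.157) and Clu on leaving out CON 1, CON 3, TESS 2 or TESS 3 (0.0714 to 0.206).

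The genes next in order did not pass and are given as values. On the higher side, Sh3gl2 (endophilin, which acts in synaptic vesicle retrieval) was at 165 ± 21.0 CPM in CON and 296 ± 76.6 in TESS (SD, n = 3 each, adjusted p from edgeR 0.13). Gm38393 was at 69.1 ± 23.7 and 159 ± 2.97 CPM and overlaps Snrpn on the same strand. Dnajc13, an endosomal chaperone gene, was at 27.5 ± 4.78 and 99.4 ± 19.5 CPM from 13 and 30 UMIs, and Add1, which caps actin filaments, at 121 ± 28.3 and 263 ± 80.5 CPM. On the lower side, Itm2b was at 809 ± 38.2 and 494 ± 79.5 CPM (adjusted p from edgeR 0.065) and Arl6ip5 at 151 ± 7.55 and 45.2 ± 29.0 CPM. The non-coding 4930555F03Rik, also 1 of the leading genes of the subtype, was at 576 ± 46.7 and 296 ± 128 CPM, and Rapgef4os1, antisense to Rapgef4, at 487 ± 94.9 and 259 ± 46.0 CPM. For all 8 the CON and TESS samples did not overlap, as the choice of genes by p makes likely.

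**Figure D4:**
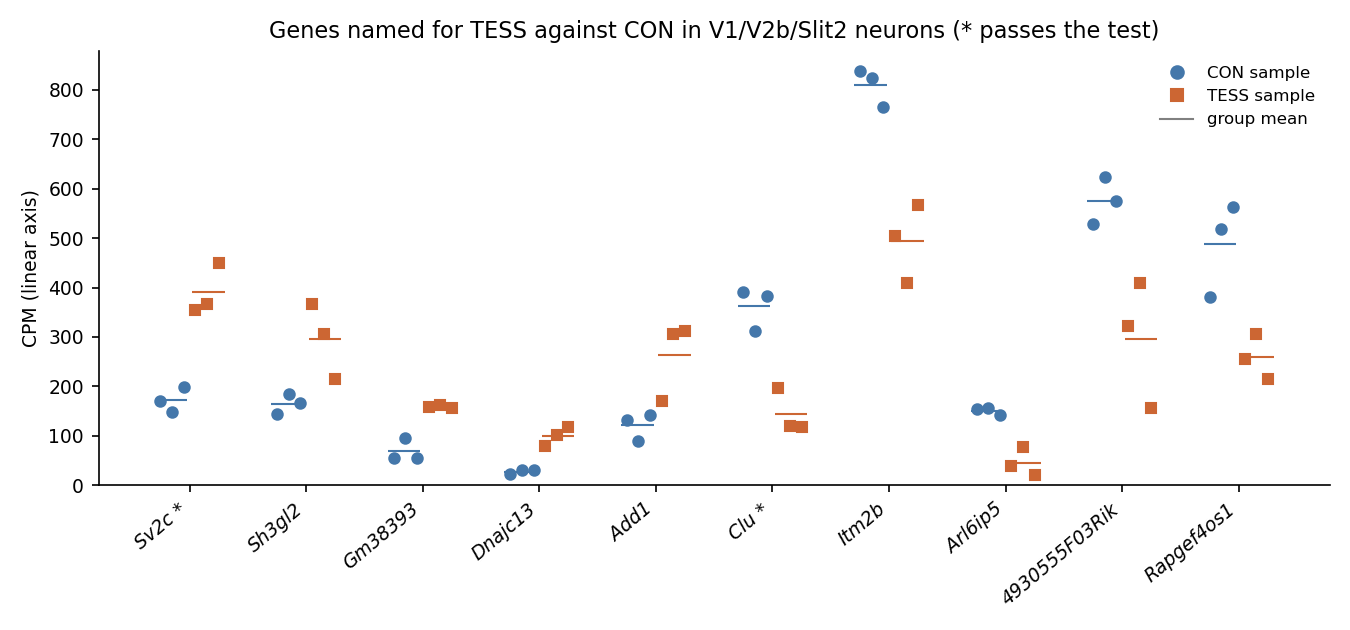
Level in CPM (linear axis) of the 10 genes named for TESS against CON in V1/V2b/Slit2 neurons, 1 point per sample with group means as lines, an asterisk marking the 2 that passed. Sv2c lies between 354 and 450 CPM in TESS and between 148 and 198 CPM in CON, and Clu lies between 117 and 197 CPM in TESS and between 311 and 392 CPM in CON.

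No gene of the lists examined passed. Over all 3154 genes tested, 1608 were higher and 1546 (49.0%) lower in TESS. The transmitter genes gave 0.14 ± 0.31 for Slc17a6, 0.11 ± 0.25 for Slc6a5 and −0.35 ± 0.28 for Slc32a1 (log2 fold change, SE). Of 33 voltage-gated channel genes tested, 21 were higher and 12 lower (median 0.09), with Kcnip4 at 3138, 3834 and 4126 CPM in CON 1 to 3 and 2557, 3325 and 2581 CPM in TESS 1 to 3. Of 26 nuclear oxidative phosphorylation genes 18 were lower (median −0.13), for example Cox4i1 (601, 660 and 457 CPM, then 492, 332 and 332 CPM). Of 6 heat shock and chaperone genes 5 were lower (median −0.42). Of 6 Slit and Robo genes 3 were higher and 3 lower (median −0.10), and of 19 glutamate receptor genes 11 were higher (median 0.04).

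Immediate early genes, which neurons switch on within minutes of strong activity, were too sparse for single tests in this subtype. Of 34 listed genes 33 were in the table, 26 had a UMI in members and none entered the gene test. Junb gave 2, 1 and 2 UMIs in CON 1 to 3 and 5, 6 and 1 in TESS 1 to 3. Fos gave 3, 0 and 2 and then 1, 1 and 0, Egr1 gave 0 in CON and 4 in TESS, Nr4a1 0 and 2, and Per1 7 and 9. For Fos alone a difference was not detectable at this depth.

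Summed over the list, the level was 154, 104 and 136 CPM in CON 1 to 3 (28, 14 and 22 UMIs) and 190, 350 and 274 CPM in TESS 1 to 3 (29, 41 and 14 UMIs). All 3 TESS samples were above all 3 CON samples. On the log2 scale with 10 CPM added, the means were 7.13 ± 0.27 and 8.09 ± 0.43 (SD, n = 3 each), a difference of 0.97 (exact permutation test, two-sided, p = 0.1, the smallest 3 against 3 can give). Other neurons had 157, 182 and 170 CPM in CON and 254, 451 and 289 CPM in TESS, with the order of the 3 TESS samples the same, and whether the subtype's difference departs from theirs was not tested. TESS 2 and TESS 3 had the shallowest nuclei (median 1710 and 1599 UMIs against 2263.5 to 2922 in the others), and the part of depth in the sum was not tested. Inside the shared batch the values were 154 and 104 CPM in CON 1 and CON 2 and 190 CPM in TESS 1.

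**Figure D5:**
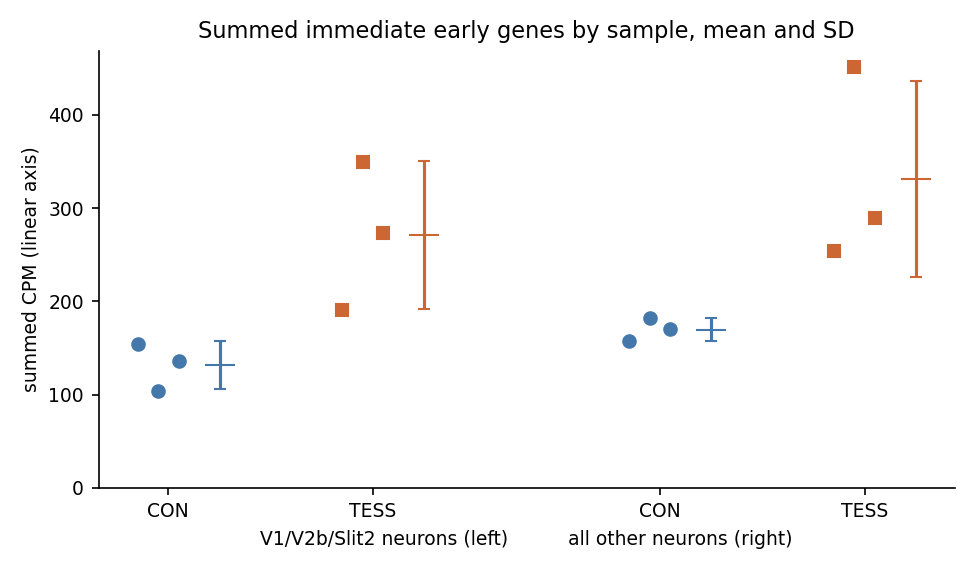
Immediate early genes summed in CPM (linear axis) per sample for V1/V2b/Slit2 neurons (left) and all other neurons (right), with the mean and SD of each group. In V1/V2b/Slit2 neurons the TESS samples lie between 190 and 350 CPM and the CON samples between 104 and 154 CPM.

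The response of V1/V2b/Slit2 neurons differed from that of other neurons for 1 of 3154 genes (0.0317%) by an interaction term in edgeR. Meis2 was at 331, 363 and 346 CPM in CON 1 to 3 and 282, 179 and 274 CPM in TESS 1 to 3, while other neurons had 106, 115 and 96.1 CPM and then 142, 171 and 168 CPM. The subtype's samples were lower under TESS and those of other neurons higher, without overlap in either, and the difference was −1.05 ± 0.23 (adjusted p from edgeR 0.0391). The subtype's own difference in Meis2 did not pass (−0.54, adjusted p from edgeR 0.51), and the interaction was lost without CON 1, CON 3 or TESS 2, the last giving −0.77. Against V1/V2b/Stmn3 no gene of 2010 passed (0.0%, edgeR, 86 at an unadjusted p below 0.05). Against V1/V2b/Tenm2 2 of 1796 genes passed (0.111%), RP23-231J2.1 (−1.02) and Gpc5 (−0.88), and against V2a/Slc17a6 2 of 2445 (0.0818%), RP23-231J2.1 again (−0.82) and Abat, which breaks down GABA (−1.76). The subtype's own differences in RP23-231J2.1, Gpc5 and Abat did not pass (adjusted p from edgeR 0.34, 0.30 and 0.85). These comparisons share the samples of V1/V2b/Slit2 neurons. Those against single subtypes were not repeated with samples left out.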

How the data were processed

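The authors deposited whole-number UMI counts of 19954 genes in 18514 nuclei, made with version 2 of the 10x chemistry, per the labels. Per the submitters' processing notes, Cell Ranger 2.2.0 and Seurat 3 were used with build mm10 (GRCm38). Filters on nuclei, the use of intronic reads and of strand, and the meaning of a batch number are not stated. The deposited metadata give each nucleus its library, batch, cell type, subtype and a mitochondrial fraction, which was at most 1.60% in members. Coordinates are from GENCODE vM21 (GRCm38), where 19153 of 19954 symbols (96.0%) matched 1 gene.

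Counts were summed per sample over members. Genes were tested in edgeR 4.0.16 (R 4.3.3, quasi-likelihood F test, TMM, filterByExpr with minimum count 10) without a batch term, adjusted by Benjamini-Hochberg over all genes tested and called below 0.05. The gene test, the class comparison and the interaction with other neurons were tested on simulated data. Those data had large planted changes in well-counted genes and no sample or batch effect, so they do not show how the fits behave under such effects. SE was derived from the fold change and F. Single values were compared by two-sided exact permutation tests over samples. Named genes are the calls whose CON and TESS samples are separate (mean of 10 CPM or more), the smallest p filling up to 5 a direction, plus transmitter and lineage genes and the 4 list genes of highest level. Some lineage genes are not reported here. Scn8a, Kcna1, Cacna2d1, Onecut2, Nfib, Tac2, Npy, Gal, Slit1, Robo3, Robo4, Sema6d, Nrp1 and the genes of the class comparison were chosen after their values were seen. Leading genes have the largest ratios over other neurons. The members, lists and tests were chosen with earlier results of these data known. Alternatives were RLE scaling, DESeq2 1.42.0, other filters and depths, a batch term, a replicate block and leaving out samples. Replicate numbers were not used to pair samples in the main tests.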

Additional observations from a re-analysis of the deposited data

Results flagged for a closer look

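The results in this part are differences between responses or contrasts that passed an edgeR interaction test with the sample as a block, given as log2 values. For TESS against CON, V1/V2b/Slit2 neurons differed from other neurons in Meis2 (−1.05). They differed from V1/V2b/Tenm2 in RP23-231J2.1 (−1.02), with 1324, 1009 and 1520 CPM in CON 1 to 3 and 1023, 776 and 1056 CPM in TESS 1 to 3 of V1/V2b/Slit2 against 669, 603 and 813 CPM and then 1215, 1025 and 807 CPM. They also differed from it in Gpc5 (−0.88), a heparan sulfate proteoglycan gene. From V2a/Slc17a6 they differed in RP23-231J2.1 (−0.82) and in Abat (−1.76), which was at 165, 252 and 179 CPM in CON and 210, 136 and 78.2 CPM in TESS, while V2a/Slc17a6 had 83.6, 58.2 and 77.7 CPM and then 154, 172 and 334 CPM. The subtype's own TESS differences in Meis2, RP23-231J2.1, Gpc5 and Abat did not pass. RP23-231J2.1 matched no gene of the annotation by symbol. In V1/V2b/Stmn3, against which no gene passed, it was at 1590, 2210 and 1867 CPM in CON 1 to 3 and 1160, 1638 and 1286 CPM in TESS 1 to 3. Its lower level under TESS is thus not shown to be particular to V1/V2b/Slit2 neurons.

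For the contrast of Slc17a6-only over inhibitory-only nuclei, 12 genes are given. Other neurons pool 37 subtypes here, and the contrast inside single ones was not tested. V1/V2b/Slit2 neurons lay above other neurons in Chrm3 (1.44), Nxph1 (1.19), Grik2 (0.85), Plcb1 (0.85), Kcnh7 (0.63) and Grm5 (0.48). Of these Chrm3, a muscarinic receptor gene, had 331 and 321 CPM in the 2 classes of the subtype and 291 and 729 CPM in those of other neurons. V1/V2b/Slit2 neurons lay below other neurons in Erbb4 (−2.38), Fam19a1 (−1.90), Adarb2 (−1.76), Slc2a13 (−1.68), Epha6 (−1.13) and Asic2 (−0.90). Fam19a1 had 559 and 448 CPM in the classes of the subtype and 1453 and 295 CPM in those of other neurons.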

How the results depend on the processing

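The count of genes called for TESS against CON (2) became 1 without a filter on low counts and 1 with 29 nuclei drawn per sample. It became 5 (all lower) with sums thinned to equal totals. It was 0 without the 145 nuclei with 2 or more oligodendrocyte marker UMIs (0 in edgeR, 97 at unadjusted p below 0.05). In inhibitory-only nuclei (0 in edgeR, 100) and in DESeq2 (0, 84) the calls were also lost. They were lost with a batch term too, which leaves TESS 1 against CON 1 and CON 2. Leaving out each sample gave 0 to 3, the 0 coming without CON 3, TESS 2 or TESS 3 (273, 267 and 260 in edgeR at unadjusted p below 0.05). Thinning, inhibitory-only nuclei and nuclei without both classes were added after seeing the data. No member has under 500 UMIs, so that filter changed nothing in the gene and immediate early gene results. For the response against other neurons (1 gene) leaving out a sample gave 0 to 2, with 0 without CON 1, CON 3 or TESS 2. For the transmitter classes (12 genes) a minimum count of 3 gave 22, classes from 2 or more UMIs gave 5, and leaving out a sample 8 to 14. The difference in inhibitory share was −14.8 points at 500 UMIs and −51.7 to −45.7 on leaving out a sample, where 5 samples cannot go below an exact permutation p of 0.0625. Without TESS 3 the difference in the Slc17a6-only share was 1.77 in place of 11.9 points, and without CON 2 it was 3.25. Without TESS 3 the difference in share of neurons was 1.14 points and without TESS 1 0.14. Samples with the same replicate number did not deviate together (correlations −0.061, −0.0047 and −0.026), and those with different numbers gave −0.043 to 0.072. Such values near 0 from so few samples cannot exclude a pairing, and the main tests used none. The replicate block left 2 genes called. It left the immediate early gene difference at 0.97 (exact permutation p = 0.25, the smallest 3 pairs can give). The difference in share of neurons stayed at 0.54 and that of the Slc17a6-only share at 11.9. No result changed direction.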
